A study of Chlorocebus aethiops with 30 samples.

Results

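RNA levels in Vero cells 8 h after detachment with TrypLE at 37 °C were set against those in cells taken off with an enzyme-free solution. All 340 genes of the authors' table of group means were used, 340 of 340, and each was described by the difference log2(TrypLE 8 h + 1) minus log2(control + 1). A symbol was found for 150 genes, a LOC number for 49 and no name for 7, all by matching gene numbers to the authors' table that sets the 2 enzymes against each other at 0 h. Genes with a name are thus those that the authors listed for a low p-value between the enzymes at 0 h, and the other 134 genes are known here by number only.

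Vero is an epithelial line from the kidney of the African green monkey, and TrypLE is a recombinant enzyme used in place of trypsin to release adherent cells. The study holds 30 samples in 10 groups of 3, of which 7 groups have means in the table. Cells of the TrypLE 8 h group were digested with TrypLE at 37 °C, put back into the incubator for 8 h and then lifted with the enzyme-free solution. Cells of the TrypLE 0 h group were harvested straight after digestion, and those of the TrypLE 24 h group were kept in culture for 24 h before enzyme-free lifting. The trypsin 0 h, 8 h and 24 h groups were treated in the same way with trypsin at 37 °C. The control cells were lifted once with the enzyme-free solution at 37 °C and harvested at once. All groups were unmodified cells labelled WT, grown in MEM with fetal bovine serum. The TrypLE 8 h and control groups therefore share the last lifting step, whereas digestion, detachment, replating and 8 h of renewed culture all separate them and cannot be told apart.

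The values are on an FPKM scale, read counts scaled to gene length and to library size, and each is 1 mean of 3 samples deposited without an SD. No test between the 2 groups was possible, and "higher" and "lower" describe means only. The study design calls the replicates biological, and nothing says whether they came from separate passages. Of 17 markers of epithelial and kidney tubule cells, 9 of fibroblasts and 11 of endothelial and immune cells, 0 were found by symbol, so the labelled cell type could not be checked against them. In bulk RNA, fewer cells carrying a transcript and less of it per cell cannot be told apart.

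Immediate early genes are transcribed within minutes of a growth factor, stress or adhesion signal and need no new protein synthesis. Many encode transcription factors, and their products are matched by feedback inhibitors, among them the dual specificity phosphatases, which remove phosphate from MAP kinases. Their transcripts are short-lived, so that levels follow recent signalling closely. Gene roles below are those known for the human and mouse genes.

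At 8 h after TrypLE, 10 genes were at least 2-fold higher than in the control, 2.94% of the table, and 36 were at least 2-fold lower, 10.6% of the table. Here 2-fold means a difference of at least 1 on the log2(FPKM + 1) scale, which understates the change of genes at low levels. With a pseudocount of 5 in place of 1, 5 genes were 2-fold higher and 25 were 2-fold lower, and of the named genes KLF6 and NFKBIA were then within 2-fold. The median difference over the 340 genes was -0.07, with a range of -3.57 to 2.18, and 215 of the 340 lay below 0 and 125 above. Most genes lay close to the control, with 177 genes, or 52.1%, within 0.25 of 0 and 243 genes, or 71.5%, within 0.5. The genes past 2-fold downwards had a median FPKM-scale mean of 15.0 at TrypLE 8 h and 43.4 in the control. Those past 2-fold upwards had a median of 22.2 at TrypLE 8 h and 8.97 in the control. The smallest difference counted as higher was 1.03, and the next below the line was HPS6 with 0.88. On the other side gene 103219558 with -1.001 was counted as lower, and gene 103241885 with -0.996 was not.

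**Figure D1:**
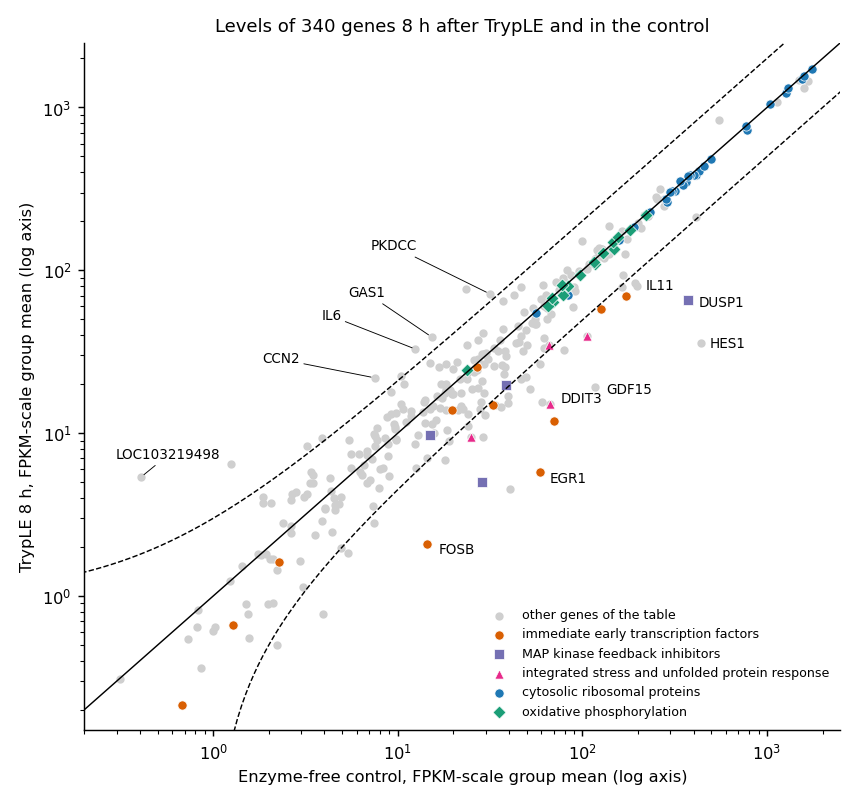
Each point is 1 of 340 genes, with the FPKM-scale group mean in the enzyme-free control on the x axis and that at TrypLE 8 h on the y axis, both on log axes; the solid line marks equal levels and the dashed lines a difference of 1 or -1 on the log2(FPKM + 1) scale. Ribosomal protein and oxidative phosphorylation genes lie on the line, while HES1, EGR1, FOSB, GDF15, DUSP1 and DDIT3 are among the labelled genes below the lower dashed line.

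HES1, the transcriptional repressor through which Notch signalling acts and which switches off its own gene, had the largest difference of all 340 genes. Its FPKM-scale mean was 35.9 at TrypLE 8 h and 437.8 in the control, a difference of -3.57. The TrypLE 8 h level was 0.0819 times the control level. Across the TrypLE groups the mean was 437.8 in the control, 83.3 at 0 h, 35.9 at 8 h and 378.9 at 24 h. The 8 h mean was thus the lowest of the 4, and the 24 h mean was close to that of the control. HES1 was the single gene of the 16 on the Notch list that was found by symbol.

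The immediate early list names 36 genes, of which 11 were found by symbol, and all 11 were lower at TrypLE 8 h, 6 of them by at least 2-fold, where 215 of all 340 genes were lower and 10.6% were lower by 2-fold. Their median difference was -1.08, against -0.07 over all genes of the table. The remaining members of this and every other list are either absent from the table or among the genes known by number only. EGR1, a zinc finger factor induced by growth factors, had an FPKM-scale mean of 5.78 at TrypLE 8 h and 59.0 in the control, a difference of -3.15. ATF3, a stress-induced bZIP repressor, had a mean of 11.9 at TrypLE 8 h and 70.2 in the control, a difference of -2.46. FOSB, a subunit of the AP-1 transcription factor, had a mean of 2.10 at TrypLE 8 h and 14.5 in the control, a difference of -2.32. The TrypLE 8 h level was 0.0979, 0.170 and 0.145 times the control level in EGR1, ATF3 and FOSB.

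BHLHE40, a basic helix-loop-helix repressor, had an FPKM-scale mean of 69.6 at TrypLE 8 h and 172.2 in the control, a difference of -1.30. IER3, an early response gene that modulates cell survival, had a mean of 57.9 at TrypLE 8 h and 125.9 in the control, a difference of -1.11. KLF6, a zinc finger factor with growth-restraining roles, had a mean of 14.9 at TrypLE 8 h and 32.7 in the control, a difference of -1.08. On the log2(FPKM + 1) scale, the other 5 members lay within 2-fold of the control. MAFF, a small bZIP partner protein, was nearest to it with a mean of 25.5 at TrypLE 8 h and 26.9 in the control. EGR2, EGR3, NR4A1 and CSRNP1, named after their values were seen, had differences of -0.46, -0.45, -0.32 and -0.48. EGR2 and EGR3 were near the lower end of the table, with means of 0.215 and 0.666 at TrypLE 8 h and of 0.677 and 1.27 in the control. The EGR2 mean at TrypLE 8 h was 0.318 times the control mean, and with a pseudocount of 0.1 EGR2 was counted as 2-fold lower.

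All 4 members of the MAP kinase feedback list that were found, of 18 listed, were lower at TrypLE 8 h, and 2 of them were lower by at least 2-fold. Of all 340 genes, 215 were lower, and 10.6% were lower by 2-fold. The median difference of the list was -1.62, against -0.07 over all genes. DUSP1, a nuclear phosphatase that inactivates p38, JNK and ERK, had an FPKM-scale mean of 66.0 at TrypLE 8 h and 372.8 in the control, a difference of -2.48. DUSP5, a nuclear phosphatase specific for ERK, had a mean of 4.98 at TrypLE 8 h and 28.7 in the control, a difference of -2.31. The cytoplasmic ERK phosphatase DUSP6, named after its value was seen, had a mean of 19.8 at TrypLE 8 h and 38.5 in the control, just short of 2-fold. SPRY2, an inhibitor of receptor tyrosine kinase signalling, lay closest to the control with a mean of 9.68 at TrypLE 8 h and 15.0 in the control, a difference of -0.58.

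The integrated stress response raises translation of a set of stress factors when the initiation factor eIF2 is phosphorylated. All 4 genes of this list found in the table, of 18 listed, were lower at TrypLE 8 h, 3 of them by 2-fold, against 215 of 340 lower and 10.6% lower by 2-fold in the table as a whole. Their median difference was -1.36, and that of all genes -0.07. DDIT3, which encodes the pro-apoptotic factor CHOP, had an FPKM-scale mean of 15.0 at TrypLE 8 h and 66.4 in the control, a difference of -2.08. CEBPB, a bZIP activator of stress and acute phase genes, had a mean of 39.3 at TrypLE 8 h and 105.7 in the control, a difference of -1.41. DDIT4, an inhibitor of mTORC1, had a mean of 9.47 at TrypLE 8 h and 24.9 in the control, a difference of -1.31. PPP1R15A, the phosphatase subunit that ends the response by restoring eIF2, was the member nearest to the control. It had a mean of 34.8 at TrypLE 8 h and 65.7 in the control, a difference of -0.90. Across the TrypLE groups DDIT3 stayed below the control, with a mean of 66.4 in the control, 25.5 at 0 h, 15.0 at 8 h and 21.9 at 24 h.

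Secreted signals were divided. GDF15, a stress-induced member of the TGF-beta superfamily, had an FPKM-scale mean of 19.3 at TrypLE 8 h and 117.6 in the control, a difference of -2.55. The other 2 ligands found of the 14 listed were closer to the control, with a difference of -0.26 for HBEGF, an EGF receptor ligand named after its value was seen, and -0.18 for the vasoconstrictor peptide EDN1. The inflammatory list held members on both sides. IL6, the acute phase cytokine, had a mean of 32.8 at TrypLE 8 h and 12.5 in the control, a difference of 1.33. IL11, a cytokine that uses the same gp130 receptor subunit as IL6, had a mean of 84.0 at TrypLE 8 h and 192.5 in the control, a difference of -1.19. These related cytokines therefore stood on opposite sides of the control.

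NFKBIA, the inhibitor that holds NF-kappaB in the cytoplasm, had an FPKM-scale mean of 21.6 at TrypLE 8 h and 46.3 in the control, a difference of -1.07. NFKBIZ, a nuclear cofactor of NF-kappaB at the IL6 promoter, had a mean of 14.2 at TrypLE 8 h and 28.0 in the control, a difference of -0.93. Of the 4 inflammatory genes found among 27 listed, 1 was thus 2-fold higher and 2 were 2-fold lower, with a median of -1.0. Of all 340 genes, 2.94% were 2-fold higher and 10.6% were 2-fold lower, with a median of -0.07. DEPP1, a FOXO-induced gene named after its value was seen, was the 1 gene with a symbol past 2-fold downwards that is neither on a list nor among the 12 lowest, with a mean of 26.5 at TrypLE 8 h and 58.8 in the control.

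Genes above the control were fewer. CCN2, also called CTGF, a matricellular protein and a standard target of YAP, had an FPKM-scale mean of 21.9 at TrypLE 8 h and 7.48 in the control, a difference of 1.43. The other 4 members of the YAP and SRF list found in the table, of 30 listed, did not share this. Thrombospondin THBS1 had a mean of 33.5 at TrypLE 8 h and 33.2 in the control. Among those named after their values were seen, CCN1, the nearest relative of CCN2, had a difference of 0.17, the YAP inhibitor AMOTL2 one of -0.24 and the coagulation initiator F3 one of -0.13. The list's median was 0.01, so CCN2 stood alone on it.

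GAS1, a membrane protein that binds Hedgehog ligands and accumulates in growth arrest, had an FPKM-scale mean of 39.0 at TrypLE 8 h and 15.2 in the control, a difference of 1.30. PKDCC, a secreted tyrosine kinase of extracellular proteins, had a mean of 71.8 at TrypLE 8 h and 31.4 in the control, a difference of 1.17. CCN2, IL6, GAS1 and PKDCC were all the genes with a symbol past 2-fold upwards. The next by size was HPS6, a subunit of a complex in lysosome-related organelle formation, with 0.88. FAT1, a giant cadherin, had a difference of 0.51. Smaller differences were those of the giant scaffold protein AHNAK with 0.37 and the transcriptional coregulator IFRD1 with 0.37. The zinc finger factor ZNF217 had 0.23, the Polycomb protein PHC2 0.23 and the actin-binding calponin CNN3 0.19. Among genes with a symbol the upward side was thus short: ZNF217, PHC2 and CNN3 already lay within 0.25 of the control.

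**Figure D2:**
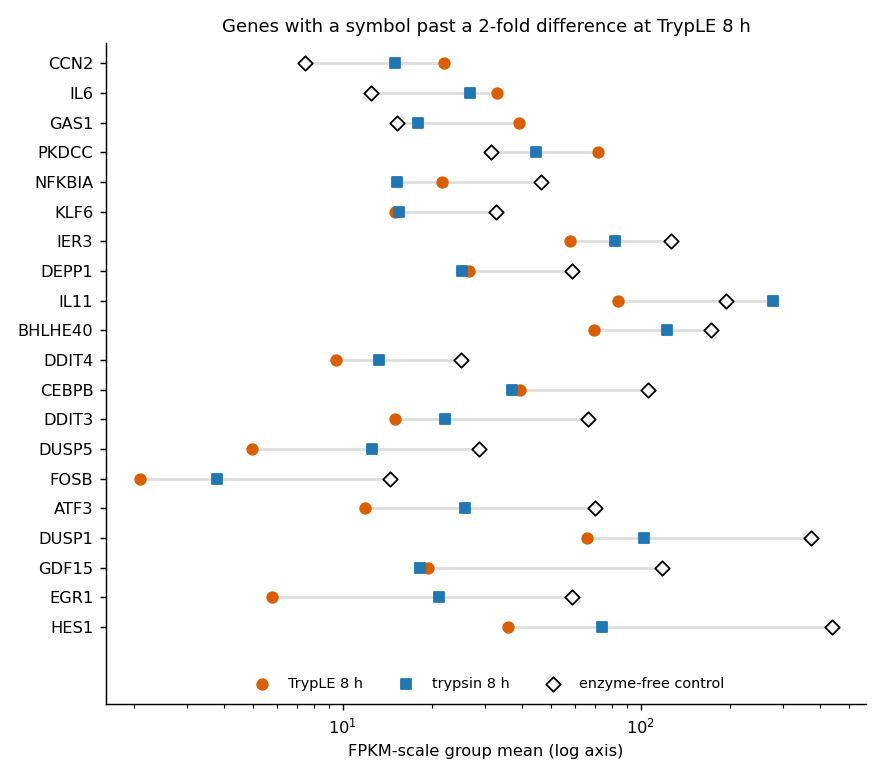
FPKM-scale group means on a log axis for the 20 genes with a symbol past a 2-fold difference, shown for TrypLE 8 h (circles), trypsin 8 h (squares) and the enzyme-free control (diamonds), with grey lines joining the lowest and the highest of the 3. The 4 genes at the top were higher at TrypLE 8 h than in the control and the 16 below were lower, and IL11 is the gene whose trypsin 8 h mean lies above the control while its TrypLE 8 h mean lies below.

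The large housekeeping groups differed little from the control. Of the 28 cytosolic ribosomal protein genes found by symbol, 0 were past 2-fold in either direction, the median difference was -0.04 and the range -0.25 to 0.05. The wider set of 46 genes that the authors' descriptions call ribosomal proteins, chosen after their values were seen, had a median of -0.05 and a range of -0.25 to 0.11. Many ribosomal LOC entries are near copies of one another, and how reads were shared among them is not stated. Of the 16 oxidative phosphorylation genes found, 0 were past 2-fold, with a median of -0.03 and a range of -0.17 to 0.06. NDUFA4, a respiratory chain subunit, had a mean of 218.8 at TrypLE 8 h and 221.4 in the control. Taken relative to the median of all genes, the medians of the ribosomal protein and oxidative phosphorylation lists were 0.02 and 0.03, on the other side of 0. Of 80 genes with a mean over the 7 groups of at least 100, 0 were 2-fold higher and 8 were 2-fold lower. Of all 340 genes, 2.94% were 2-fold higher and 10.6% were 2-fold lower. The median size of the difference was 0.07 among these 80 genes and 0.25 among the 118 with a mean of 20 to 100.

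The genes of mitosis that were found were all lower, as were 215 of the 340 genes. On the log2(FPKM + 1) scale 0 of them were lower by 2-fold, against 10.6% of all genes. The 5 found of 31 listed had a median difference of -0.67, against -0.07 over all genes. Named after their values were seen, KIF4A, a chromosome-bound motor, had a difference of -0.94, the kinetochore protein CENPF -0.81, the mitotic kinase PLK1 -0.67 and the proliferation marker MKI67 -0.63. KNL1, the kinetochore scaffold, was nearest to the control with an FPKM-scale mean of 2.89 at TrypLE 8 h and 3.90 in the control. PLK1 had a mean of 38.4 at TrypLE 8 h and 61.7 in the control. KIF4A had a mean of 6.08 at TrypLE 8 h and 12.6 in the control, or 0.482 times the control level. With a pseudocount of 0.1 it was counted as 2-fold lower.

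These mitotic genes are long, with a median gene model of 9590 bases, and differences were lower among the longer genes with a deposited length. Among the 206 genes with a deposited length, the 102 of up to 1000 bases had a median difference of -0.05 and the 31 of 1000 to 2000 bases also -0.05. The 40 genes of 2000 to 4000 bases had a median of -0.16, and the 33 longer ones had a median of -0.39, with 28 of 33 below 0. At TrypLE 24 h the same 4 classes had median differences from the control of -0.24, -0.10, 0.00 and 0.06, so the order by length ran the other way. The mitotic list itself had median differences from the control of -0.41 at TrypLE 0 h and -0.51 at TrypLE 24 h. KIF4A, CENPF, MKI67 and KNL1 are themselves among the genes longer than 4000 bases. The cytosolic ribosomal protein and oxidative phosphorylation lists are short, with median lengths of 606.5 and 554.5 bases, so length and gene group overlap. The part of gene length in the mitotic difference was not tested. Among the 206 genes with a deposited length, those past 2-fold were most often in the class of 2000 to 4000 bases. Of its 40 genes, 10 were 2-fold lower and 3 were 2-fold higher, against 10.6% and 2.94% of all 340 genes. The class of up to 1000 bases held 3 lower and 0 higher genes, and that of 1000 to 2000 bases 4 and 2. The class above 4000 bases held 2 lower and 0 higher. Of the genes past 2-fold, 24 had a deposited length and the others had none.

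**Figure D3:**
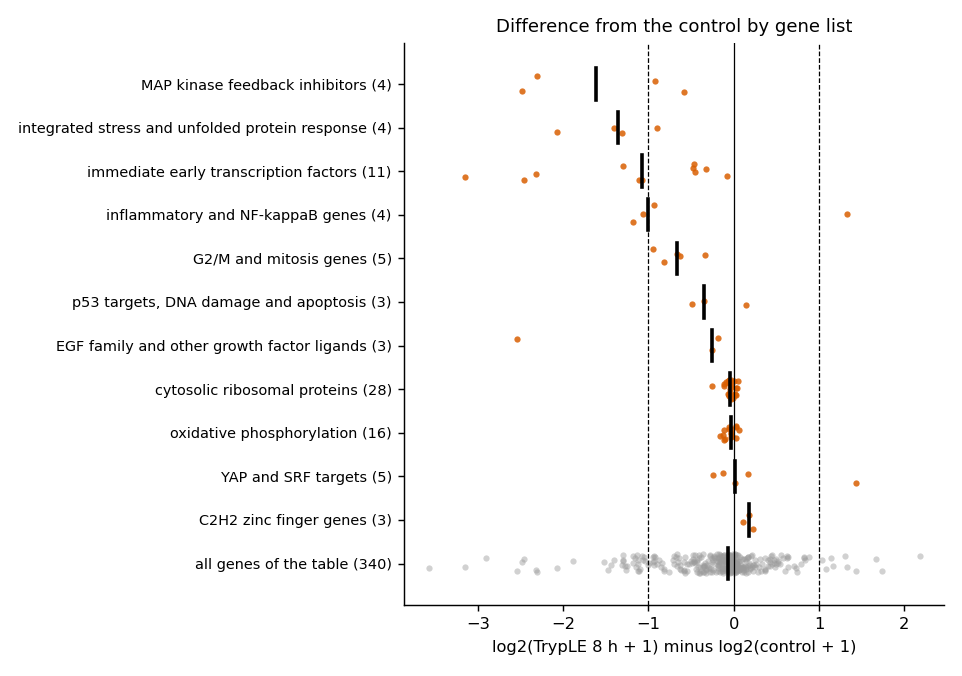
Differences log2(TrypLE 8 h + 1) minus log2(control + 1) for the members of each list with at least 3 genes in the table, 1 point per gene, with the number of members in brackets, vertical bars at the medians, and dashed lines at 1 and -1. The MAP kinase feedback, integrated stress and immediate early lists have medians below -1, and the ribosomal protein and oxidative phosphorylation lists sit near 0.

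**Figure D4:**
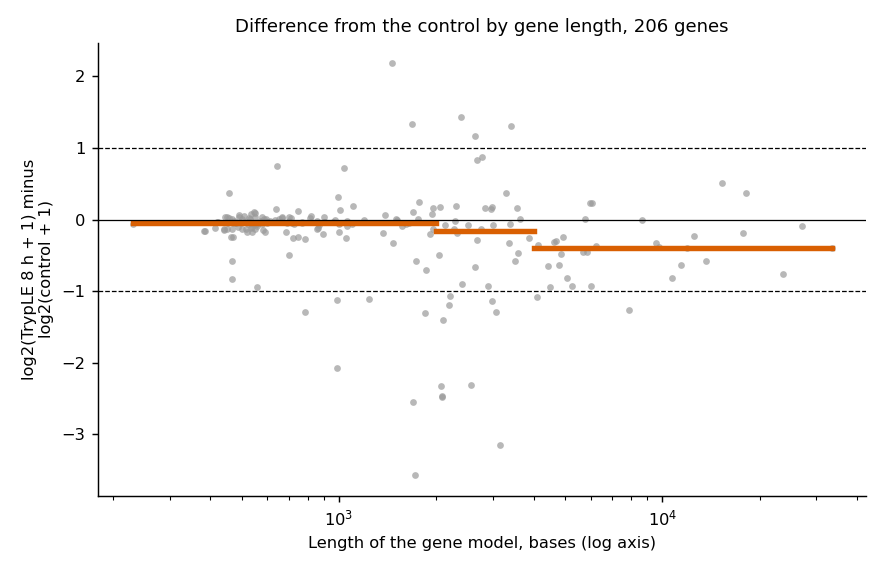
Difference from the control against the length of the gene model on a log axis for the 206 genes with a deposited length, 1 point per gene, with horizontal bars at the median of each length class. The bars lie at -0.05, -0.05, -0.16 and -0.39 for the 4 classes.

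Survival and damage genes found in the table lay within 2-fold of the control, with a median difference of -0.35, against -0.07 over all genes. Of 18 listed, 3 were found and 0 were past 2-fold. Of all 340 genes, 2.94% were 2-fold higher and 10.6% were 2-fold lower, and 3 genes are too few to set against these shares. PLK2, a p53-induced kinase, had an FPKM-scale mean of 132.4 at TrypLE 8 h and 119.4 in the control. MCL1, an anti-apoptotic BCL2 relative, and GADD45B, a stress-induced activator of MAP kinase pathways, both named after their values were seen, had differences of -0.35 and -0.49. The 3 C2H2 zinc finger genes found were above the control, as were 125 of all 340 genes, with a median of 0.17, and ZBTB6 among them had a mean of 94.0 at TrypLE 8 h and 86.9 in the control. Thymosins, which hold actin monomers and were also named after their values were seen, were at high levels in both groups. TMSB4X had a mean of 1326 at TrypLE 8 h and 1583 in the control, and TMSB10 had a mean of 1083 at TrypLE 8 h and 1126 in the control.

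Metallothioneins, small cysteine-rich proteins that bind zinc and copper, were recognised by the authors' descriptions after their values were seen. All 4 were lower at TrypLE 8 h, as were 215 of all 340 genes, and 1 of them was lower by 2-fold, as were 10.6% of all genes. LOC103233030 had an FPKM-scale mean of 80.4 at TrypLE 8 h and 198.7 in the control, a difference of -1.29. LOC103233029 had a difference of -0.94, LOC103233031 of -0.84 and LOC103233043 of -0.58. The 4 means added up to 446.4 at TrypLE 8 h and 866.0 in the control. Along the TrypLE groups the sum was 866.0 in the control, 1080 at 0 h, 446.4 at 8 h and 288.9 at 24 h, so that the lowest sum was at 24 h. SLC30A1, a zinc exporter controlled by the same metal-sensing factor and named after its value was seen, had a mean of 7.04 at TrypLE 8 h and 14.3 in the control, a difference of -0.93. Metallothionein genes are close copies of one another, and reads may be shared among them.

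Among entries without a symbol, the largest upward difference was that of LOC103219498, described by the authors as an RNA 3'-terminal phosphate cyclase-like gene and singled out after its value was seen. Its FPKM-scale mean was 5.38 at TrypLE 8 h and 0.407 in the control, a difference of 2.18. In the other groups it was 0.327 at TrypLE 0 h, 3.82 at TrypLE 24 h, 9.45 at trypsin 0 h, 0.309 at trypsin 8 h and 0.201 at trypsin 24 h. Means above 1 were those of TrypLE 8 h, TrypLE 24 h and trypsin 0 h, in no order of enzyme or time, and at a pseudocount of 5 the gene was no longer past 2-fold. In the 3 trypsin 0 h libraries it also had the widest spread of the 206 genes, with the highest library 3.76 times the lowest. LOC103224057, described as thioredoxin-interacting protein, which responds to glucose, had a mean of 12.9 at TrypLE 8 h and 29.6 in the control.

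The 134 genes known by number only held 5 of the genes past 2-fold upwards and 17 of those past it downwards, with a median difference of -0.05. Of all 340 genes, 2.94% were past 2-fold upwards and 10.6% downwards, with a median of -0.07. Gene 103234667 had an FPKM-scale mean of 4.53 at TrypLE 8 h and 40.5 in the control, a difference of -2.91. Gene 103237242 had a mean of 15.6 at TrypLE 8 h and 60.1 in the control. Upwards, gene 103225830 had a mean of 6.47 at TrypLE 8 h and 1.24 in the control, and gene 103225146 had a mean of 76.9 at TrypLE 8 h and 23.5 in the control. Both upward genes had lower means than the control at the other TrypLE times, with 0.272 and 16.2 at 0 h and 1.07 and 20.1 at 24 h.

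The 8 h values can be set beside those at 0 and 24 h. All comparisons with the control share its 3 samples. At TrypLE 0 h, 14 genes were 2-fold higher than in the control (4.12%) and 14 were 2-fold lower (4.12%). At TrypLE 24 h, 15 genes were 2-fold higher (4.41%) and 16 were 2-fold lower (4.71%), so that the excess on the lower side was greatest at 8 h among the TrypLE groups. EGR1 had FPKM-scale means of 59.0 in the control, 160.1 at 0 h, 5.78 at 8 h and 172.3 at 24 h. DUSP1 had 372.8 in the control, 559.9 at 0 h, 66.0 at 8 h and 220.3 at 24 h. ATF3 had 70.2 in the control, 48.3 at 0 h, 11.9 at 8 h and 75.9 at 24 h. In each of the 3 genes the 8 h mean was the lowest of the course.

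FOSB had FPKM-scale means of 14.5 in the control, 26.2 at 0 h, 2.10 at 8 h and 15.1 at 24 h. DUSP5 had 28.7 in the control, 42.2 at 0 h, 4.98 at 8 h and 36.0 at 24 h. GDF15 had 117.6 in the control, 85.8 at 0 h, 19.3 at 8 h and 108.9 at 24 h. Here too the 8 h mean was the lowest and the 24 h mean lay nearer to the control than the 8 h mean did. Over the immediate early list the median difference from the control was 0.49 at 0 h, -1.08 at 8 h and 0.11 at 24 h. Over the MAP kinase feedback list it was 0.56 at 0 h, -1.62 at 8 h and -0.07 at 24 h. The integrated stress list was below the control at all 3 times, with medians of -0.87 at 0 h, -1.36 at 8 h and -0.48 at 24 h.

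The genes above the control followed different courses. IL6 had FPKM-scale means of 12.5 in the control, 59.7 at 0 h, 32.8 at 8 h and 12.2 at 24 h, with its highest mean at 0 h. GAS1 had 15.2 in the control, 18.4 at 0 h, 39.0 at 8 h and 14.9 at 24 h, with its highest mean at 8 h. CCN2 had 7.48 in the control, 18.0 at 0 h, 21.9 at 8 h and 16.5 at 24 h, above the control throughout. PKDCC had 31.4 in the control, 34.5 at 0 h, 71.8 at 8 h and 51.4 at 24 h.

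**Figure D5:**
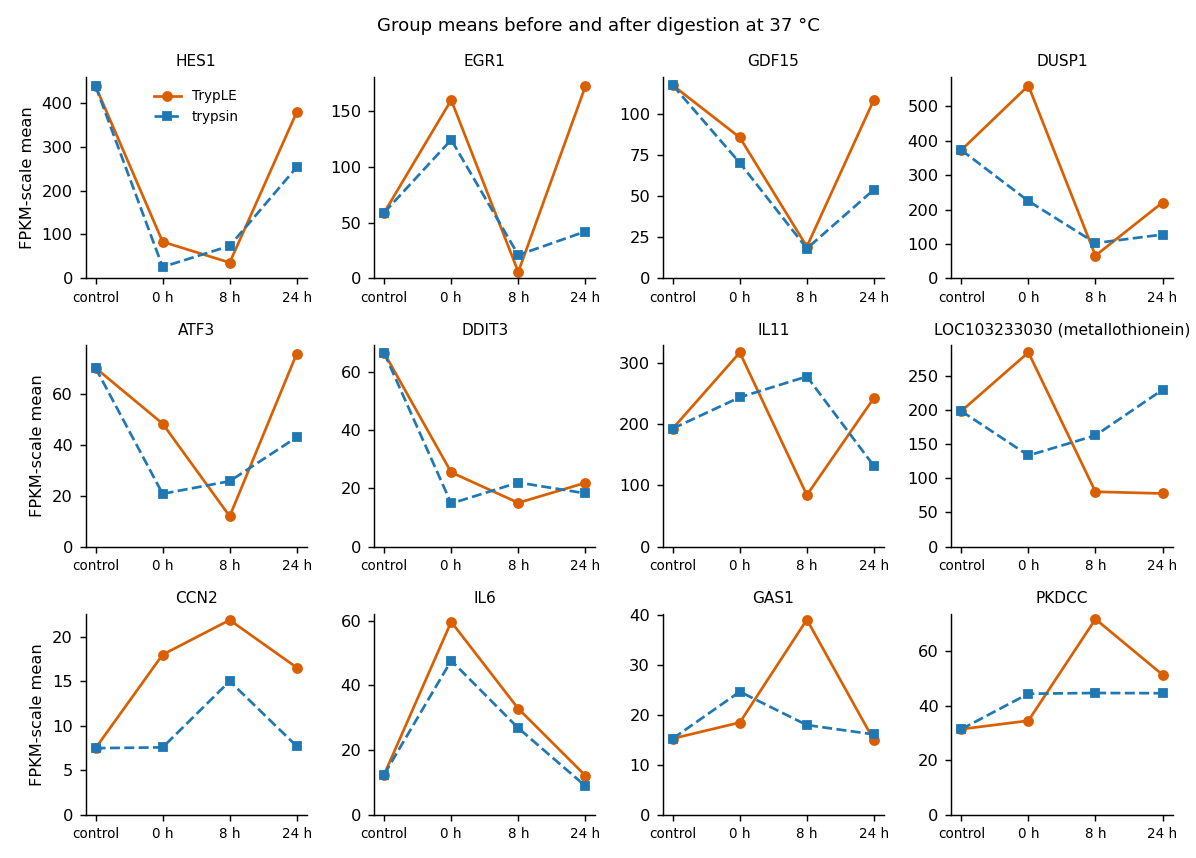
FPKM-scale group means of 12 genes in the enzyme-free control and at 0, 8 and 24 h after TrypLE (circles, solid lines) or trypsin (squares, dashed lines), all at 37 °C, with a linear y axis from 0 and the same control value starting both lines. On the TrypLE line HES1, EGR1, GDF15, DUSP1, ATF3, DDIT3 and IL11 have their lowest mean at 8 h, and CCN2, GAS1 and PKDCC their highest.

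Trypsin at the same time gave a related but not identical set of values. At trypsin 8 h, 7 genes were 2-fold higher than in the control (2.06%) and 28 were 2-fold lower (8.24%). Set directly against trypsin 8 h, TrypLE 8 h had 11 genes 2-fold higher (3.24%) and 10 genes 2-fold lower (2.94%), with a median difference of -0.07. The direct difference was largest downwards in IL11, with an FPKM-scale mean of 84.0 at TrypLE 8 h, 277.4 at trypsin 8 h and 192.5 in the control, or -1.71 between the enzymes. EGR1 had a mean of 5.78 at TrypLE 8 h, 21.0 at trypsin 8 h and 59.0 in the control. HES1 had a mean of 35.9 at TrypLE 8 h, 73.8 at trypsin 8 h and 437.8 in the control. For EGR1 and HES1 both enzymes gave means below the control, with the lower one after TrypLE.

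DUSP5 had an FPKM-scale mean of 4.98 at TrypLE 8 h, 12.6 at trypsin 8 h and 28.7 in the control, and ATF3 had a mean of 11.9 at TrypLE 8 h, 25.7 at trypsin 8 h and 70.2 in the control. DUSP6 ran the other way, with a mean of 19.8 at TrypLE 8 h, 8.89 at trypsin 8 h and 38.5 in the control. GAS1 had a mean of 39.0 at TrypLE 8 h, 17.9 at trypsin 8 h and 15.2 in the control. GDF15 and CEBPB were nearly equal after the 2 enzymes, with means of 19.3 and 39.3 at TrypLE 8 h, 18.2 and 36.9 at trypsin 8 h, and 117.6 and 105.7 in the control.

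Values of single libraries were at hand for 0 h only. Over the 206 shared genes the highest of the 3 TrypLE 0 h libraries was a median of 1.24 times the lowest, the 95th percentile of this ratio was 2.01 and the largest 3.02. Of the 46 genes past 2-fold at TrypLE 8 h, 24 had such libraries, and in 24 of 24 the ratio between TrypLE 8 h and control was beyond that gene's own ratio among TrypLE 0 h libraries. The 24 genes were picked for being past 2-fold, so this outcome was largely set in advance and lends them no support. The spread is also from another time point, in genes listed for a low p-value at 0 h. It is no measure of the error at 8 h. The depth of the TrypLE 8 h and control libraries is unknown.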

How the data were processed

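RNA was sequenced from 30 Vero samples in 10 groups of 3. The submitters' processing notes list HISAT2 2.0.5, an aligner, and featureCounts 1.5.0-p3, a read counter. Each of build, annotation, strandedness of counting and the way the 340 genes were picked is not given in the sources used here, and no positions are printed. The authors' deposited table of group means has no unit in its header. Over 206 shared genes the authors' normalized count per kilobase was 15.8 times its trypsin 0 h value and 15.7 times its TrypLE 0 h value, with coefficients of variation of 0.0143% and 0.00642%, and the deposited means are therefore called FPKM-scale values. The library columns at 0 h hold a normalized signal, which the authors obtained from each gene's count and a size factor per library. The authors' pathway tables and 9 samples treated with cold TrypLE were not analysed here.

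Differences were computed as log2(FPKM + 1) with a pseudocount of 1, in Python 3.11.15 (matplotlib 3.10.9, numpy 2.4.6, pandas 2.3.3), and the scripts were tested on simulated data. With group means alone, no test was run. Named genes were the 12 highest and 12 lowest differences among genes with a symbol and a mean of at least 1 in the higher group, every list member past 2-fold, and the member nearest to 0 of each list with at least 3 members; some genes this rule names are not reported here. The genes and the 28 lists were chosen with earlier results of these data known, and 13 lists had 0 members by symbol. Alternatives were pseudocounts of 0.1 and 5, a minimum mean of 5, differences relative to the median, and a threshold of 1.5-fold.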

Additional observations from a re-analysis of the deposited data

How the results depend on the processing

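At the main setting 10 genes were 2-fold higher and 36 were 2-fold lower at TrypLE 8 h than in the control. With a pseudocount of 5 in place of 1 there were 5 higher and 25 lower, since a larger pseudocount shrinks the differences of genes at low levels. With a pseudocount of 0.1 there were 11 and 46, and EGR2, KIF4A and SLC30A1 were among the genes gained on the lower side. With a mean over the 7 groups of at least 5 there were 7 and 32, and relative to the median of all genes there were 10 and 33. A threshold of 1.5-fold, chosen after seeing the data, gave 23 and 62. Of the named genes past 2-fold, 4 of 4 higher ones stayed past it under pseudocounts of 0.1 and 5 and relative to the median, and so did 15 of 15 lower ones except at a pseudocount of 5, where 13 of 15 did and KLF6 and NFKBIA did not. LOC103219498 was not 2-fold higher at a pseudocount of 5, and the minimum mean of 5 removed it. No named gene past 2-fold changed direction under these settings. Relative to the median of all genes, values near 0 crossed it, with 0.02 for the cytosolic ribosomal protein median, 0.03 for the oxidative phosphorylation median and 0.05 for NDUFA4. No paired analysis was possible because the TrypLE 8 h and control groups are deposited as means without replicates, and for the same reason no replicate could be left out. The depth and the error behind each mean are unknown.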
